A study of Mus musculus with 72 samples.

Results

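The genes described are the ephrins and their Eph receptors, the netrins with Dcc and the Unc5 receptors, and the slits with the Robo receptors, in the brains of mouse pups exposed to morphine or saline. Members were the entries of the count matrix whose gene name, paired by gene ID in the deposited comparison tables and read without regard to case, was on a list of 35 names. All 35 names were found, among 55401 genes, and all 35 passed the filter on low counts in every fit. They are 9 EphA and 5 EphB receptors, 5 ephrin-A and 3 ephrin-B ligands, 2 netrins, 5 netrin receptors, 3 slits and 3 Robo receptors. The netrins Ntn3 and Ntn5, the receptor Neo1 and the receptor Robo4 are not on that list and were treated as partners.

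Axon guidance genes encode cues and receptors that steer growing axons and migrating neurons and later act at synapses. Ephrins are held on the cell surface, ephrin-A by a lipid anchor and ephrin-B by a membrane-spanning segment, and they signal to Eph receptor tyrosine kinases on touching cells, most often as a repellent, with signals also running back into the ephrin-bearing cell. Netrins are secreted, laminin-like cues that attract through Dcc and repel through Unc5 receptors, while slits are secreted repellents read by Robo receptors, which keep axons from crossing or recrossing the midline.

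RNA was sequenced from the right brain hemisphere of pups whose genotype label is C57Bl/6, whereas the submitters' design text names the cortex. Morphine is an opioid agonist, and each of 3 exposure windows had its own saline pups, which went through the same pump or injections. PND1 pups were exposed in utero through an osmotic minipump in the dam that gave saline or morphine at 10 mg/kg/day, and were collected 6 h after they were found on postnatal day 1. PND14 pups were injected 2 times a day after birth with morphine at 10 mg/kg or with saline, and were collected 6 h after the last injection on postnatal day 14 (day 15 in the submitters' design text). 3-Tri pups received the pump and then the injections of the same drug, and were collected at the same age and interval as PND14 pups. PND1 held 10 morphine libraries (4 labelled female, 6 male) and 14 saline libraries (7 of each). PND14 and 3-Tri each held 12 morphine and 12 saline libraries, with 6 of each gender label in each, which gives 72 libraries in all. The labels do not say which pups shared a litter, so the p-values measure only the spread between these libraries.

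Total counts were 20742862 to 27333125 per PND1 library, 4407544 to 21404819 per PND14 library and 3113919 to 19938980 per 3-Tri library. The shallowest PND14 and 3-Tri libraries, which the authors left out of their means, were kept here, and no library matched another of its group within counting noise. The transcripts of the sex genes went against the gender label in 4 of 24 PND1 libraries, 0 of 24 PND14 libraries and 12 of 24 3-Tri libraries, so results by gender are given by label only. Markers of cortex and forebrain were present in every group, and so were markers of striatum, cerebellum and choroid plexus. The summed level of 9 hindbrain and spinal cord markers, mostly Hox genes, reached 1.16 to 82.2 CPM (median 18.5) in PND1 morphine and 0.159 to 44.3 CPM (median 9.84) in PND1 saline libraries, and was at most 1.76 CPM in any day 14 library, so the PND1 libraries differed in these markers among themselves. CPM, the count of a gene relative to the total of its library, was scaled by TMM, n is the number of libraries, and a gene was called where its adjusted p (edgeR quasi-likelihood F test, Benjamini-Hochberg over all genes tested) was under 0.05. Shares of all genes called, given beside the member counts, are those of edgeR in the main fits. They are not given for DESeq2 or for fits with other settings or fewer libraries, whose member counts therefore stand without a background.

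Levels between genes can be compared only per length, as CPM per kb of exon. Efnb3, an ephrin-B that stops corticospinal axons from recrossing the midline, was the most abundant member in all windows, with 58.4 ± 2.31 CPM per kb in PND14 saline and 83.6 ± 7.85 in PND1 saline libraries (SD, n = 12 and 14). At PND1 its lowest saline library was above the highest library of every other member. Behind it at PND1 came Efnb2 at 19.1 ± 2.01, Ephb6 at 18.1 ± 2.25, Efna2 at 16.4 ± 1.66 and Efna3 at 16.3 ± 1.44 CPM per kb, and these neighbours did not differ beyond their spread. At PND14 the next members were Epha4 at 32.4 ± 2.21, Ephb6 at 30.3 ± 2.23 and Unc5a at 20.9 ± 1.63 CPM per kb, and the ranges of Epha4 and Ephb6 overlapped. The 3-Tri saline libraries gave the same 10 leading members in the same order as the PND14 saline libraries. At the low end stood Epha1 and Epha2, Eph receptors best known from epithelia, with 0.363 ± 0.0758 and 0.630 ± 0.1005 CPM per kb in PND14 saline, against 0.334 ± 0.0484 and 0.371 ± 0.0787 in PND1 saline libraries.

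The widest differences lay between the ages of the saline pups, which asks how these genes stand after the first 2 postnatal weeks against birth. Of the 35 members, 31 were called between PND14 and PND1 saline pups, 14 higher and 17 lower at PND14. That share is to be read against a background of 84.9% of the 22010 genes tested, 41.7% higher and 43.2% lower, so most expressed genes were called in this comparison. The median size of the log2 fold change was 0.70 over the members and 0.58 over all genes tested. DESeq2 called 30 of the 35, and its share over all genes is not given here. In 20 of 35 members the PND14 and PND1 saline libraries did not overlap, 9 with every PND14 library higher and 11 with every PND14 library lower, where 48.7% of all genes tested were without overlap. Age, handling, depth and the makeup of the tissue changed together between these windows and cannot be told apart, and in bulk tissue fewer cells of a type and less RNA per cell cannot be told apart either.

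**Figure D1:**
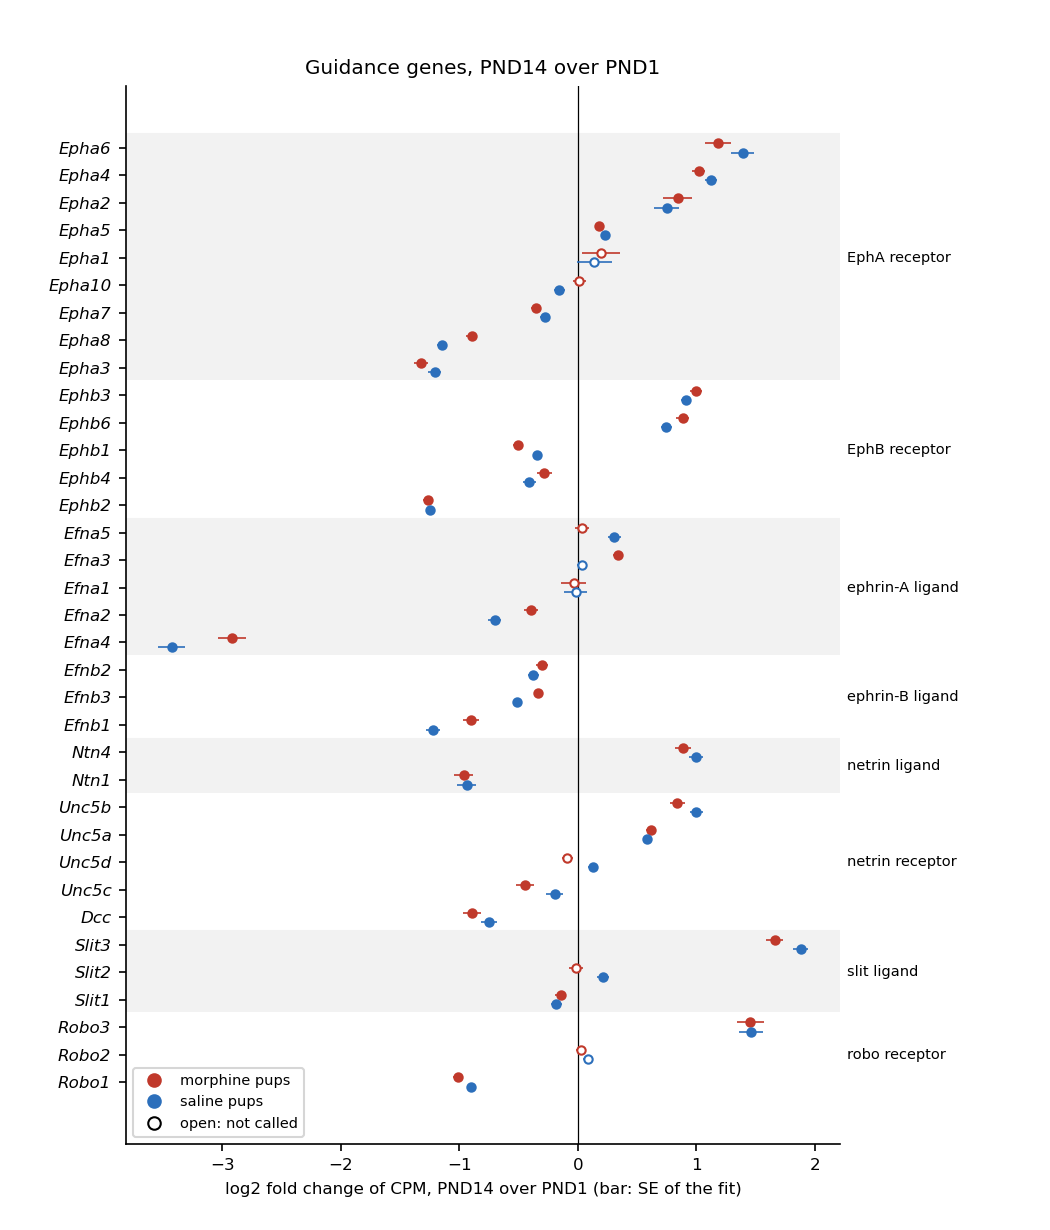
Log2 fold change (SE as bars) of the 35 members in PND14 against PND1 libraries, grouped by role, with morphine and saline pups as separate points and filled points for calls. Efna4 lies far to the left at -3.43 in saline pups, Slit3 farthest to the right at 1.88, and every role except the ephrin-B ligands has members on both sides of 0.

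Neither ligands nor receptors moved one way as a class. Of 13 ligands 4 were higher, 7 lower and 2 not called at PND14 (median log2 fold change -0.18), and of 22 receptors 10 were higher, 10 lower and 2 not called (median 0.10). The ephrin-B ligands were the only role in which all members were called lower, 3 of 3, with a median of -0.51. Among EphA receptors 4 were higher and 4 lower (median 0.14), and among EphB receptors 2 were higher and 3 lower (median -0.35). Summed per kb, the 3 ephrin-B ligands stood at 78.3 ± 2.71 CPM per kb in PND14 saline and 115 ± 8.96 in PND1 saline libraries, and the 5 ephrin-A ligands at 37.6 ± 0.959 and 46.7 ± 2.84. The 9 EphA receptors summed to 73.6 ± 3.62 CPM per kb in PND14 saline and 61.1 ± 3.08 in PND1 saline libraries. The 5 EphB receptors summed to 51.8 ± 2.91 and 46.6 ± 2.24 CPM per kb. On average the ephrin ligands as pools were thus lower, and the Eph receptors of both classes as pools higher, at PND14 with TMM scaling. Scaled by library totals alone, Epha4 was at a log2 fold change of 0.88 and Ephb6 at 0.51. The pools were not summed under that scaling, so their directions are given for TMM only. The largest step in each receptor pool came from 1 gene. Epha4 stood at 32.4 and 14.9 CPM per kb, and Ephb6 at 30.3 and 18.1, in PND14 and PND1 saline libraries. Each of these steps was wider than that of its pool. Other receptors rose as well, such as Epha6, at 6.71 and 2.56 CPM per kb, and Ephb3, at 5.38 and 2.86. In the same pools 4 EphA and 3 EphB receptors were called lower.

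Among the EphA receptors the rises were led by Epha6, Epha4 and Epha2. Epha6, a receptor of the retinal and cortical mapping system, had 24.7 to 47.6 CPM (median 34.4) in PND14 saline libraries, against 10.7 to 17.6 CPM (median 13.4) in PND1 saline libraries. Every PND14 saline library was above every PND1 saline library (log2 fold change 1.39, SE 0.10, edgeR adjusted p = 5.7e-22). Epha4, which binds ephrins of both classes and repels corticospinal axons, had 233 to 281 CPM (median 265) in PND14 saline and 93.4 to 145 CPM (median 119.7) in PND1 saline libraries. The groups were again apart, with 2.17-fold more at PND14 (log2 fold change 1.12, SE 0.05, edgeR adjusted p = 5.9e-33). Epha2 stood at 2.21 to 3.82 CPM (median 2.86) in PND14 saline and 0.938 to 2.32 CPM (median 1.71) in PND1 saline libraries, the lowest PND14 library lying inside the PND1 range (log2 fold change 0.75, SE 0.11, edgeR adjusted p = 1.8e-09). Epha5, a receptor for ephrin-A5 in topographic mapping, differed by a log2 fold change of 0.23 (SE 0.03), and Epha1 was not called at 0.14 (SE 0.15). The counts of Epha6 and Epha1 share exon bases with another gene (Gm9017 and Zyx), and whether the counting used strand is not given in the sources used here.

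The falls among the EphA receptors were led by Epha3 and Epha8. Epha3, a receptor of ephrin-A5 in axon repulsion, had 17.4 to 21.8 CPM (median 18.6) in PND14 saline libraries, against 38.4 to 52.9 CPM (median 42.8) in PND1 saline libraries. No PND14 library came near the PND1 range, and the level was 2.31-fold lower (log2 fold change -1.21, SE 0.05, edgeR adjusted p = 5.4e-32). Epha8, known from the midbrain tectum, had 21.3 to 27.7 CPM (median 22.3) in PND14 saline and 45.1 to 53.6 CPM (median 51.3) in PND1 saline libraries. These groups did not overlap either (log2 fold change -1.15, SE 0.04, edgeR adjusted p = 1.2e-35). Epha7, which helps to place thalamocortical axons, differed by -0.28 (SE 0.04), and Epha10, which lacks kinase activity, by -0.16 (SE 0.05) on the log2 scale, the smallest of the 4 falls.

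Of the EphB receptors, Ephb2 fell and Ephb3 and Ephb6 rose, all without overlap between the ages. Ephb2, which binds ephrin-B and gathers NMDA receptors at synapses, had 53.3 to 63.0 CPM (median 58.2) in PND14 saline libraries, against 131 to 149 CPM (median 137) in PND1 saline libraries (log2 fold change -1.25, SE 0.04, edgeR adjusted p = 5.3e-43). Ephb3, its partner in the guidance of callosal axons, had 32.6 to 39.1 CPM (median 35.4) in PND14 saline and 17.1 to 20.3 CPM (median 19.0) in PND1 saline libraries. Ephb3 thus moved against Ephb2 (log2 fold change 0.91, SE 0.04, edgeR adjusted p = 3.2e-30). Ephb6, which has no active kinase, averaged 114 ± 8.40 CPM in PND14 saline and 68.4 ± 8.48 CPM in PND1 saline libraries (SD, n = 12 and 14), a log2 fold change of 0.74 (SE 0.05). Ephb1 and Ephb4, of which Ephb4 is the venous receptor of ephrin-B2, differed by -0.35 (SE 0.03) and -0.41 (SE 0.05). Ephb1 was without overlap and Ephb4 was not, and both share exon bases with another gene (Gm26846 and Zan).

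The largest change of any member was that of Efna4, an ephrin-A ligand. It had 0.305 to 1.31 CPM (median 0.766) in PND14 saline libraries, against 7.25 to 10.2 CPM (median 8.25) in PND1 saline libraries. Each of the 14 PND1 libraries lay above each of the 12 PND14 libraries, and the fitted level was 10.8-fold lower at PND14 (log2 fold change -3.43, SE 0.11, edgeR adjusted p = 1.8e-40). In 3-Tri saline libraries it stood at 0.372 to 1.11 CPM (median 0.741), on the PND14 side. Efna1, Efna3 and Efna4 lie side by side on the minus strand of chromosome 3 (chr3:89271733-89338028, mm10), within 66296 bases, and the neighbours did not share the fall. Efna3, an ephrin-A found on astrocytes around hippocampal spines, had 35.7 to 43.5 CPM (median 41.0) in PND14 saline and 34.5 to 45.6 CPM (median 39.7) in PND1 saline libraries, and was not called (log2 fold change 0.03, SE 0.04, edgeR adjusted p = 0.47). Efna1, known from blood vessels and epithelia, was not called either (log2 fold change -0.02, SE 0.10, edgeR adjusted p = 0.85). Of the summed per-kb level of these 3 genes, Efna4 made up 2.54% ± 0.800 in PND14 saline and 22.4% ± 1.90 in PND1 saline libraries, and Efna3 88.0% ± 2.72 and 69.8% ± 2.09 (SD, n = 12 and 14). The gene 4731419I09Rik, which shares exon bases with Efna4 on the other strand, was higher at PND14 (37.9 and 28.5 CPM, log2 fold change 0.45, SE 0.03), the opposite direction to Efna4.

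The start regions of Efna3 and Efna4 are shown because these neighbours parted most clearly between the ages. They are taken from the RefSeq start windows (GRCm38.p6, minus strand, printed 5′ to 3′ along the gene) and keep only bases that also lie before the start of the gene in GENCODE M21, 224 bases at chr3:89322966-89323189 for Efna3 and 250 bases at chr3:89338029-89338278 for Efna4, so that the Efna3 stretch ends short of its RefSeq start. Capitals mark GC boxes (GGGCGG) and inverted CCAAT boxes (ATTGG).
Efna3: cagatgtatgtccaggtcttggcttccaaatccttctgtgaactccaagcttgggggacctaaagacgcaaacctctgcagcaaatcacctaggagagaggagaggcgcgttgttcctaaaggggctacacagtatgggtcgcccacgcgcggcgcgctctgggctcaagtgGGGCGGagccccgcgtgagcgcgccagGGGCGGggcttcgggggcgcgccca
Efna4: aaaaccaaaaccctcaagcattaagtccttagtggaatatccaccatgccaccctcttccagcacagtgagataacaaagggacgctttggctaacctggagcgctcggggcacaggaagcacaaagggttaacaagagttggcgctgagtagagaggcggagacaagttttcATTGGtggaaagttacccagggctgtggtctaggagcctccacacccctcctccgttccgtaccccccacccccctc
The Efna3 stretch held 2 GC boxes, 18 CG pairs and 63.4% G or C, and the Efna4 stretch held 0 GC boxes, 1 inverted CCAAT box, 7 CG pairs and 54.4% G or C. Over the whole windows of 300 bases, read on both strands, Efna3 had 3 GC boxes and 1 CCAAT box (64% G or C) and Efna4 had 0 GC boxes and 1 CCAAT box (55.7%), and a further Efna3 window (chr3:89321719-89322018) had 3 GC boxes and 0 CCAAT boxes (69.7%). Such windows (250 bases before to 50 after the RefSeq start) were matched for 30 of 35 members, 35 windows in all. On either strand, a GC box (GGGCGG or CCGCCC) was found in 71.4% of the member windows and 35.7% of all 32851 windows, and a CCAAT box (CCAAT or ATTGG) in 37.1% and 37.4%. A TATA box (TATAAA or TTTATA) was in 5.71% and 13.6%, and an E-box (CACGTG, its own reverse complement) in 5.71% and 7.15%. The median GC content was 65% over the member windows and 52.7% over all windows. These letters are a description of the windows only, and nothing was measured here on what binds them.

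The other ephrin-A ligands divided. Efna2, a ligand of the retinal map, averaged 21.5 ± 1.44 CPM in PND14 saline and 34.9 ± 3.54 CPM in PND1 saline libraries, without overlap (log2 fold change -0.70, SE 0.05, edgeR adjusted p = 5.3e-20). Efna5, the ephrin-A best known from thalamocortical and retinal mapping, had 28.6 to 38.5 CPM (median 34.7) in PND14 saline and 23.9 to 32.4 CPM (median 27.4) in PND1 saline libraries. These ranges overlapped, with the PND14 libraries higher on average (log2 fold change 0.31, SE 0.05, edgeR adjusted p = 2.3e-07). Of the ephrin-B ligands, Efnb1, an X-linked ligand present on neural progenitors, had 15.5 to 23.1 CPM (median 18.2) in PND14 saline libraries, against 32.8 to 47.9 CPM (median 42.6) in PND1 saline libraries. The groups were apart and the level was 2.33-fold lower (log2 fold change -1.22, SE 0.06, edgeR adjusted p = 8.2e-30). Efnb3 also fell without overlap, at 186 ± 7.35 CPM in PND14 saline and 266 ± 24.98 CPM in PND1 saline libraries (log2 fold change -0.51 (SE 0.03)), and Efnb2, a ligand of arteries and neurons, differed by a log2 fold change of -0.38 (SE 0.05) with overlap.

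**Figure D2:**
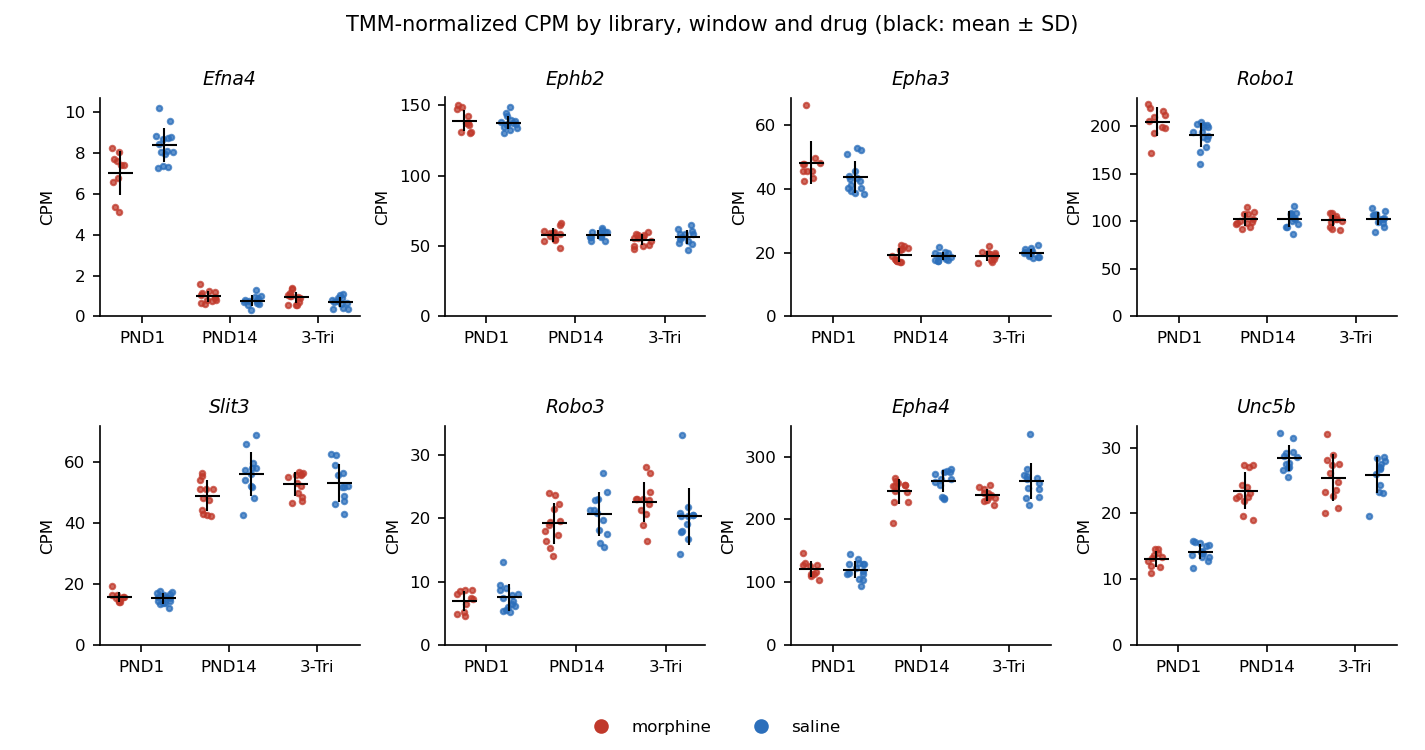
CPM of 8 members in each library (points) of PND1, PND14 and 3-Tri, with morphine left of saline in each window and bars for the means. Efna4, Ephb2, Epha3 and Robo1 are high only at PND1, Slit3, Robo3, Epha4 and Unc5b are high only at day 14, and within a window the morphine and saline points overlap in all 8.

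In the netrin pathway the ligands and the receptors each divided. Ntn1, the founding netrin attractant, had 27.9 to 35.9 CPM (median 29.4) in PND14 saline libraries, against 38.9 to 81.0 CPM (median 52.8) in PND1 saline libraries. The PND14 libraries were all lower, and the PND1 libraries spread widely (log2 fold change -0.94, SE 0.08, edgeR adjusted p = 2.1e-18). In the 7 PND1 saline libraries above 10 CPM of hindbrain markers Ntn1 averaged 64.3 CPM, and in the 7 below it 51.0 CPM. Ntn4, a netrin of basement membranes, had 13.4 to 20.3 CPM (median 16.1) in PND14 saline and 7.18 to 9.97 CPM (median 8.21) in PND1 saline libraries, again without overlap but in the other direction (log2 fold change 1.00, SE 0.06, edgeR adjusted p = 6.2e-25). Dcc, the receptor for netrin attraction, had 50.7 to 79.0 CPM (median 58.1) in PND14 saline and 90.9 to 119 CPM (median 100.1) in PND1 saline libraries. Dcc thus moved in the direction of Ntn1 (log2 fold change -0.75, SE 0.07, edgeR adjusted p = 2.6e-16).

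Among the Unc5 receptors, which mediate netrin repulsion, Unc5b and Unc5a rose the most. Unc5b, also a receptor of endothelial tip cells, had 25.6 to 32.2 CPM (median 28.2) in PND14 saline and 11.7 to 15.8 CPM (median 14.1) in PND1 saline libraries. No library of either age lay in the range of the other (log2 fold change 1.00, SE 0.06, edgeR adjusted p = 9.8e-27). Unc5a averaged 86.9 ± 6.81 CPM in PND14 saline and 58.0 ± 5.36 CPM in PND1 saline libraries, also without overlap (log2 fold change 0.59 (SE 0.04)). Unc5d, which marks migrating upper-layer cortical neurons, differed by 0.12 (SE 0.04) and Unc5c by -0.20 (SE 0.07). Unc5c was 62.8 CPM in the PND1 saline libraries high in hindbrain markers and 48.0 CPM in those low in them, and with the high ones left out its log2 fold change was -0.02 and no longer called. The counts of Unc5a and Unc5c share exon bases with Hk3 and Gm15688. The netrin ligands summed to 9.24 ± 0.673 CPM per kb in PND14 saline and 11.4 ± 2.10 in PND1 saline libraries, and their receptors to 40.7 ± 2.599 and 34.3 ± 0.821.

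Slit3 showed the largest rise of any member. This secreted repellent had 42.7 to 68.8 CPM (median 56.5) in PND14 saline libraries, against 11.98 to 17.8 CPM (median 15.5) in PND1 saline libraries. The lowest PND14 library was far above the highest PND1 library, and the level was 3.67-fold higher (log2 fold change 1.88, SE 0.06, edgeR adjusted p = 2.6e-41). Its relatives hardly moved, with Slit2 at a log2 fold change of 0.21 (SE 0.05) and Slit1 at -0.18 (SE 0.04). In CPM per kb Slit3 stood at 9.22 ± 1.17 in PND14 saline and 2.51 ± 0.280 in PND1 saline libraries, next to Slit1 at 12.98 ± 1.19 and 14.8 ± 0.984. Robo3, the receptor that lets commissural axons reach the midline, had 15.5 to 27.1 CPM (median 21.0) in PND14 saline and 5.24 to 13.1 CPM (median 7.16) in PND1 saline libraries, without overlap (log2 fold change 1.46, SE 0.10, edgeR adjusted p = 7.5e-22). Robo1, a main slit receptor of the forebrain, went the other way, with 86.8 to 116 CPM (median 103) in PND14 saline and 161 to 204 CPM (median 194) in PND1 saline libraries (log2 fold change -0.90, SE 0.04, edgeR adjusted p = 1.9e-32). Robo2 was not called (log2 fold change 0.08, SE 0.04, edgeR adjusted p = 0.051), so the 3 Robo receptors gave 1 rise, 1 fall and 1 member without a call.

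Cell type markers moved with these differences. Of the marker lists, 5 of 5 neuronal markers were higher at PND14, with summed levels of 4039 to 4572 CPM (median 4155) in PND14 saline and 854 to 1013 CPM (median 920.2) in PND1 saline libraries. The 6 oligodendrocyte markers were all higher (4070.5 to 5898 CPM (median 4688) and 181 to 252 CPM (median 202)), and so were 4 of 5 astrocyte markers (3233 to 4299 CPM (median 3728) and 341 to 489.9 CPM (median 459)). The 8 markers of newborn neurons and progenitors were all lower, at 239 to 374 CPM (median 289) in PND14 saline and 1559 to 2175 CPM (median 1962) in PND1 saline libraries. No list had a defining marker at 0 in every library of PND1 or PND14 saline, and the part of these lists in the changes of the guidance genes was not tested. Without the PND1 libraries above 10 CPM of hindbrain markers, 28 members were still called in the saline change, 13 higher and 15 lower, with Epha10, Unc5c and Unc5d lost. The share of all genes called in that fit is not given here.

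Morphine pups gave the same comparison between the windows in libraries of their own. In them 28 of 35 members were called, 12 higher and 16 lower at PND14, beside 83.5% of the 22010 genes (41.8% higher and 41.6% lower), and DESeq2 called 29. Of the members, 27 were called in both drugs, 4 in saline only, 1 in morphine only and 3 in neither. The 4 called in saline pups only were Efna5 (0.03 on the log2 scale in morphine, 0.31 in saline), Slit2 (-0.02 and 0.21), Unc5d (-0.09 and 0.12) and Epha10 (0.01 and -0.16). Efna3 was the member called in morphine pups only, at 0.34 in morphine against 0.03 in saline. The leading members kept their direction in both drugs, with Efna4 at -2.92 in morphine and -3.43 in saline, Slit3 at 1.66 and 1.88, Robo3 at 1.46 and 1.46, and Ephb2 at -1.26 and -1.25. Morphine libraries were without overlap between the ages in 20 members, 10 higher and 10 lower, beside 44.3% of all genes.

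A further 39 genes of the same pathways, ligands, receptors and signal transducers that are not members, were listed as partners. In the saline change 19 were higher, 19 lower and 1 (Ntn5) not called, where 84.9% of all genes tested were called. The falls were led by Draxin, a secreted repellent that binds Dcc (5.40 and 86.5 CPM, log2 fold change -3.97 in PND14 and PND1 saline libraries), and by Trim67, a ubiquitin ligase of the netrin pathway (25.4 and 355 CPM, log2 fold change -3.78). Srgap1, a GTPase-activating protein that binds Robo receptors, and Ablim3, an actin-binding LIM protein, followed (51.6 and 146 CPM, log2 fold change -1.47, and 64.6 and 176 CPM, log2 fold change -1.41). Draxin and Trim67 thus moved in the direction of Dcc, and Srgap1 in that of Robo1. Trim9, another ubiquitin ligase, went the other way (384 and 168 CPM in PND14 and PND1 saline libraries). Signal transducers among the partners thus moved both ways. Among the rises was Chn1, a Rac-inactivating protein acting behind Epha4 (303 and 65.0 CPM, log2 fold change 2.26). Kalrn, an exchange factor at spines, rose as well (459.8 and 189 CPM, log2 fold change 1.321). Flrt1, a cell surface protein whose relatives bind Unc5 receptors, was also higher (19.2 and 8.03 CPM, log2 fold change 1.29).

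Morphine was then set against saline within each window, which asks what the drug exposure did at that age. At PND1, after exposure in utero, 10 of 35 members were called, 4 higher and 6 lower with morphine, with 16.8% of the 21714 genes tested as the background (7.39% higher and 9.43% lower). DESeq2 called 14 of them, and its share over all genes is not given here. In edgeR, 19 members and 30.9% of all genes had an unadjusted p under 0.05. The differences were small, with a median size of 0.11 over the members and 0.09 over all genes on the log2 scale, and in 0 of 35 members did the morphine and saline libraries separate without overlap (0.05% of all genes did). The higher members were Efna5, Unc5d, Slit2 and Dcc. Efna5 had 28.8 to 35.6 CPM (median 32.6) in PND1 morphine libraries, against 23.9 to 32.4 CPM (median 27.4) in PND1 saline libraries (log2 fold change 0.26, SE 0.05, edgeR adjusted p = 0.0014). Unc5d had 69.2 to 89.6 CPM (median 79.3) in morphine and 62.1 to 74.9 CPM (median 68.7) in saline libraries (log2 fold change 0.19, SE 0.04, edgeR adjusted p = 0.0014). Slit2, the secreted repellent, had 47.0 to 62.5 CPM (median 51.8) in morphine and 37.0 to 53.8 CPM (median 47.0) in saline libraries (log2 fold change 0.22, SE 0.06, edgeR adjusted p = 0.013). Dcc had 93.2 to 139 CPM (median 115) in morphine and 90.9 to 119 CPM (median 100.1) in saline libraries (log2 fold change 0.17, SE 0.05, edgeR adjusted p = 0.025). In each of these 4 the ranges overlapped, with the morphine median above the saline median.

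The lower members were 4 ephrins and 2 Eph receptors. Efnb1 had 27.5 to 41.9 CPM (median 34.3) in PND1 morphine libraries, against 32.8 to 47.9 CPM (median 42.6) in PND1 saline libraries (log2 fold change -0.27, SE 0.06, edgeR adjusted p = 0.0032). Efna4 had 5.11 to 8.201 CPM (median 7.38) in morphine and 7.25 to 10.2 CPM (median 8.25) in saline libraries (log2 fold change -0.24, SE 0.07, edgeR adjusted p = 0.016). Efna3 had 31.8 to 38.7 CPM (median 33.3) in morphine and 34.5 to 45.6 CPM (median 39.7) in saline libraries (log2 fold change -0.21, SE 0.05, edgeR adjusted p = 0.0037). The neighbours Efna3 and Efna4, which parted between the ages, thus moved together with the drug at PND1, while Efna1 beside them was at 0.04 (SE 0.07). Efna3 shares exon bases with Gm15998 on the other strand, which averaged 9.10 CPM in PND1 morphine and 10.9 CPM in PND1 saline libraries. For 4731419I09Rik, which overlaps Efna4, these means were 27.6 and 28.5 CPM. The part of shared reads in these differences was not tested. Efna2 had 25.7 to 34.8 CPM (median 31.0) in morphine and 27.3 to 39.2 CPM (median 36.0) in saline libraries (log2 fold change -0.18, SE 0.06, edgeR adjusted p = 0.046). Epha8 had 41.2 to 51.3 CPM (median 45.5) in morphine and 45.1 to 53.6 CPM (median 51.3) in saline libraries (log2 fold change -0.12, SE 0.03, edgeR adjusted p = 0.011). Ephb4, the venous Eph receptor, had 11.2 to 13.8 CPM (median 12.6) in morphine and 11.7 to 16.95 CPM (median 13.9) in saline libraries (log2 fold change -0.17, SE 0.06, edgeR adjusted p = 0.035). All 6 overlapped between the drugs. Of the ephrin-A ligands 3 of 5 were lower and 1 higher, and none of the 2 netrins and 3 Robo receptors was called.

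**Figure D3:**
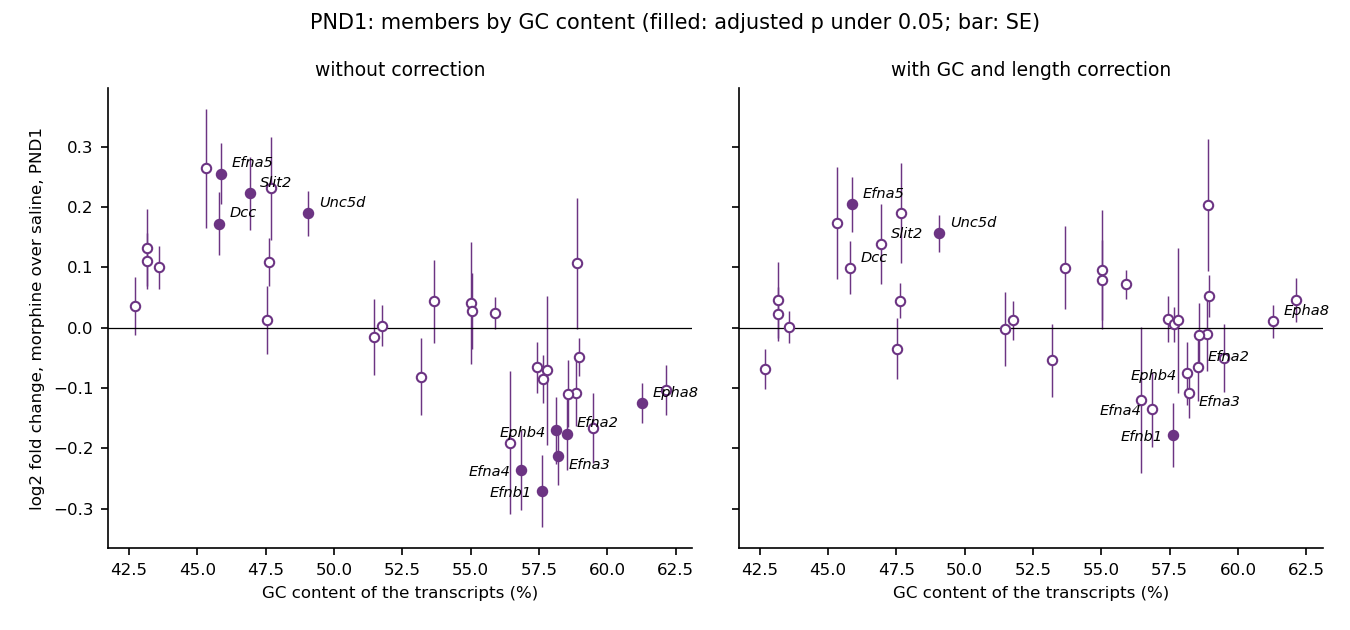
Log2 fold change (SE as bars) of the 35 members in PND1 morphine against saline libraries, plotted against the GC content of each gene's exons, with filled points for calls. The 4 higher members lie between 45.8% and 49.1% GC and the 6 lower members between 56.8% and 61.3% GC.

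The called members also differed in base composition. The exons of the 4 higher members held 45.8 to 49.1% G or C (median 46.4%), those of the 6 lower members 56.8 to 61.3% (median 58.2%), and the median of the 25 members not called was 55.0%. Over all genes the medians were 44.9% for those called higher, 56.5% for those called lower and 49.5% for the rest. With GC content and length corrected in each library, 3 of the 10 calls held, namely Unc5d at 0.16 (adjusted p = 0.002), Efna5 at 0.20 (adjusted p = 0.0061) and Efnb1 at -0.18 (adjusted p = 0.033) on the log2 scale in edgeR. Epha8 was at 0.01 after this correction, the other sign. The share of all genes called with the correction is not given here. Leaving out single libraries kept the calls of Efna5, Efnb1, Unc5d, Epha8, Efna3, Efna4 and Slit2 in 24 of 24 fits. Dcc was lost without morphine female replicate 3 or 4 or male replicate 10 (edgeR adjusted p up to 0.084), and Ephb4 without morphine female replicate 2 or 3, male replicate 10, saline female replicate 2 or 3, or male replicate 13 (up to 0.083). Efna2 was lost in 14 of 24 such fits, those without morphine female replicate 3 or 4, morphine male 6, 9 or 10, saline female 1, 2, 3 or 4, or saline male 8, 9, 10, 11 or 12 (edgeR adjusted p up to 0.11).

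Marker lists were also set side by side for the drug at PND1. Of 5 neuronal markers 2 were higher and 1 lower, of 5 astrocyte markers 1 was higher (399 to 626 CPM (median 489.8) in morphine and 341 to 489.9 CPM (median 459) in saline libraries), of 5 striatal markers 2 were lower (68.0 to 91.8 CPM (median 74.8) and 71.6 to 109.6 CPM (median 85.5)), and of 9 hindbrain markers 0 were called by edgeR, while the median of their sum was 18.5 CPM in morphine and 9.84 CPM in saline libraries. The part of these lists in the calls of the members was not tested. The hindbrain sum passed 10 CPM in 7 of 10 morphine and 7 of 14 saline libraries. Below that level, a limit chosen after seeing the data, were 3 morphine libraries, of which 1 was labelled male, and 7 saline libraries. With 1 male morphine library left, calls over both labels are not given for this fit, so it does not show which calls held. Among these libraries, a subset of those tested above, all members called above kept their direction on the log2 scale. They were Epha8 (-0.21), Efna3 (-0.24), Efna4 (-0.43), Efna5 (0.26), Efnb1 (-0.33), Unc5d (0.21), Efna2 (-0.16), Ephb4 (-0.11), Slit2 (0.31) and Dcc (0.11). Ntn1 was at 0.47 there and at 0.11 over all 24 libraries. With the 4 PND1 libraries of doubtful gender label left out, 9 members were called, with Epha5 gained and Efna2 and Dcc lost. The share of all genes called in that fit is not given here. Of the 39 partners, 6 were called higher and 0 lower at PND1, by edgeR, where 16.8% of all genes were called, among them the cell adhesion protein Flrt3 (0.24 (SE 0.07)), Srgap1 (0.13 (SE 0.04)), the ubiquitin ligase Trim9 (0.11 (SE 0.03)) and Ablim3 (0.10 (SE 0.03)). An unadjusted p under 0.05 was found for 8 partners and 30.9% of all genes.

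The drugs were also compared within each gender label at PND1. In male pups 8 of 35 members were called, 4 higher and 4 lower, beside 14.4% of the 21714 genes (6.31% higher and 8.08% lower), and DESeq2 called 9. Efnb1 had 27.5 to 36.6 CPM (median 33.8) in male morphine and 32.8 to 46.3 CPM (median 43.4) in male saline libraries (log2 fold change -0.36, SE 0.08, edgeR adjusted p = 0.004). Epha8 had 41.2 to 47.2 CPM (median 42.9) in male morphine and 45.1 to 53.5 CPM (median 50.4) in male saline libraries (log2 fold change -0.21, SE 0.04, edgeR adjusted p = 0.0026). Slit2 had 49.5 to 62.5 CPM (median 55.3) in male morphine and 37.0 to 50.1 CPM (median 47.9) in male saline libraries (log2 fold change 0.31, SE 0.08, edgeR adjusted p = 0.012). All 3 kept the direction they had over both labels. Efna4 (-0.32 (SE 0.09)) and Efna3 (-0.19 (SE 0.06)) were also lower, and Unc5d (0.21 (SE 0.05)), Efna5 (0.23 (SE 0.07)) and Epha5 (0.14 (SE 0.05)) higher, of which Epha5 and Efna3 were nearest the threshold, at an edgeR adjusted p of 0.049 and 0.0495. The count fell to 4 without male morphine replicate 9 and to 5 without male morphine replicate 10 or male saline replicate 9, 10 or 11.

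In female pups 0 of 35 members were called by edgeR, beside 0% of the genes, with 8 at an unadjusted p under 0.05 and 1 called by DESeq2. Of all genes, 11.7% had an unadjusted p under 0.05. The smallest p was that of Efna5, with 28.8 to 35.3 CPM (median 33.5) in the 4 female morphine libraries and 23.9 to 32.4 CPM (median 26.0) in the 7 female saline libraries (log2 fold change 0.28 (SE 0.08), edgeR adjusted p = 0.16). Efna3 (-0.24 (SE 0.07)) and Robo1 (0.19 (SE 0.06)) came next. The male minus female difference of the drug response, tested itself, gave 0 calls among the members in edgeR (0% of genes, 3 members and 5.47% of genes at an unadjusted p under 0.05, 0 members in DESeq2), so no difference between the labels was shown. Between the labels, over both drugs, 4 of 35 members were called at PND1, all higher in female pups, beside 4.73% of genes (2.22% higher and 2.5% lower), and DESeq2 called 6. Slit1 had 85.0 to 99.2 CPM (median 90.4) in the 11 female and 72.9 to 89.0 CPM (median 81.9) in the 13 male libraries (log2 fold change 0.19, SE 0.03, edgeR adjusted p = 0.0031). Unc5a (0.15 (SE 0.04)), Efnb3 (0.15 (SE 0.04)) and Epha8 (0.12 (SE 0.03)) differed less, and the ranges overlapped in all 4. With GC content and length corrected 0 of the 4 were called in edgeR, and without single libraries the count ran from 1 (without female morphine replicate 4, male morphine replicate 9 or 10, female saline replicate 2 or male saline replicate 8) to 8 (without male morphine replicate 5). It was 2 without female morphine replicate 1 or 2 or male morphine replicate 8.

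At PND14, after injections from birth, 2 of 35 members were called, both lower with morphine, beside 1.69% of the 19636 genes tested (0.626% higher and 1.06% lower), and DESeq2 called 2. Unc5b, the Unc5 receptor that rose with age, had 19.0 to 27.4 CPM (median 22.9) in PND14 morphine libraries, against 25.6 to 32.2 CPM (median 28.2) in PND14 saline libraries (log2 fold change -0.27, SE 0.05, edgeR adjusted p = 0.0068). Ephb1, an Eph receptor that turns uncrossed retinal axons aside at the optic chiasm, had 51.5 to 62.8 CPM (median 57.9) in morphine and 56.1 to 73.1 CPM (median 63.5) in saline libraries (log2 fold change -0.15, SE 0.04, edgeR adjusted p = 0.032). In both the ranges overlapped, with the morphine median below the saline median. Next was Slit3 at -0.19 (SE 0.06), with an edgeR adjusted p of 0.099. Of the 39 partners, 2 were higher with morphine (Trim67 at 0.27 (SE 0.06) and Ablim3 at 0.22 (SE 0.05)) and 1 lower (Trim9 at -0.14 (SE 0.03)), and 38 could be tested.

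Each drug group of PND14 came from 2 of the numbers that open the sample IDs, whose meaning the labels do not give, so drug and number cannot be told apart beyond 2 against 2. By number, Unc5b averaged 22.9 CPM (SD 3.63, n = 6) and 23.95 CPM (SD 1.86, n = 6) in morphine libraries, against 28.1 CPM (SD 2.39, n = 6) and 28.8 CPM (SD 1.55, n = 6) in saline libraries. Both morphine means lay below both saline means, an arrangement favoured by choosing genes for their call in these same libraries. Ephb1 averaged 56.6 CPM (SD 4.31, n = 6) and 58.4 CPM (SD 2.71, n = 6) in morphine libraries, against 62.4 CPM (SD 3.08, n = 6) and 65.7 CPM (SD 6.29, n = 6) in saline libraries, in the same arrangement. With 1 number left out the call of Ephb1 was lost each time, at an edgeR adjusted p of 0.17 without 4422, 0.071 without 4423, 0.12 without 4424 and 0.37 without 4425. Unc5b was lost without 4424 (0.078) and without 4425 (0.22). Of 6 oligodendrocyte markers 4 were lower with morphine at PND14, with summed levels of 2673 to 5006 CPM (median 3836) in morphine and 4070.5 to 5898 CPM (median 4688) in saline libraries, and their part in the 2 calls was not tested.

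**Figure D4:**
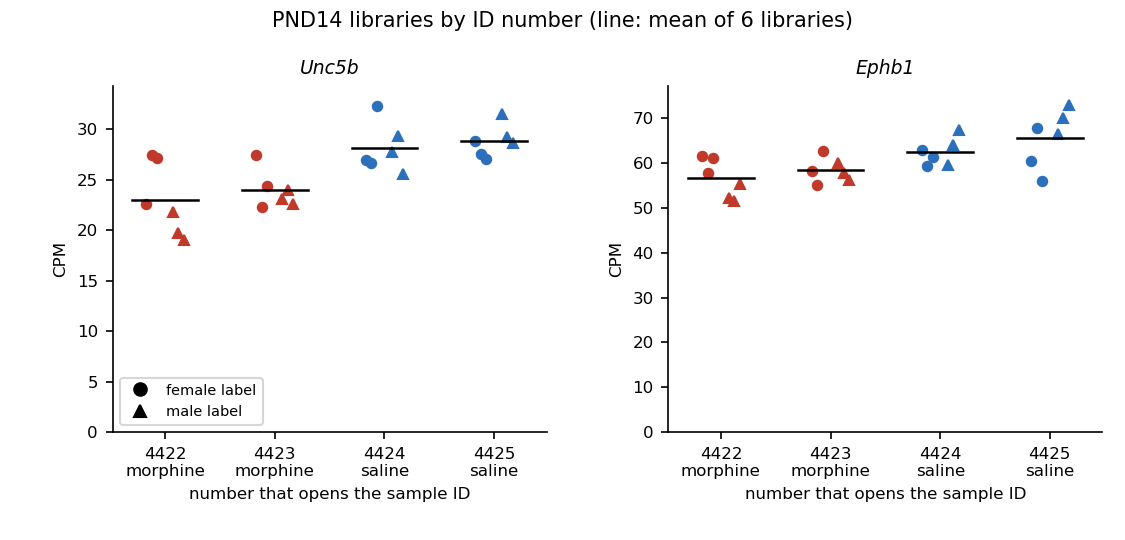
CPM of Unc5b and Ephb1 in each PND14 library (points) by the number that opens the sample ID, with the 2 morphine numbers left of the 2 saline numbers and a bar for each mean. For both genes the 2 saline means lie above the 2 morphine means, while single libraries overlap. Both genes were chosen for their calls in these same libraries.

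The libraries labelled male gave the same 2 calls at PND14, beside 0.28% of genes, and DESeq2 called 2. Unc5b had 19.0 to 24.01 CPM (median 22.2) in male morphine and 25.6 to 31.4 CPM (median 29.0) in male saline libraries, without overlap (log2 fold change -0.39, SE 0.07, edgeR adjusted p = 0.012). Ephb1 had 51.5 to 60.0 CPM (median 55.9) in male morphine and 59.5 to 73.1 CPM (median 67.0) in male saline libraries, which overlapped slightly (log2 fold change -0.26, SE 0.05, edgeR adjusted p = 0.027). Leaving out 1 ID number removed Ephb1 each time and Unc5b without 4422, 4424 or 4425 (edgeR adjusted p of 0.097, 0.1 and 1.0), so 0 or 1 members were then called, 1 without 4423. In female pups 0 members were called by edgeR (0% of genes, 3 members and 10.5% of genes at an unadjusted p under 0.05, 0 members in DESeq2). Their smallest p belonged to Epha8 (0.18 (SE 0.08), 19.4 to 28.5 CPM (median 25.2) in female morphine and 21.3 to 23.5 CPM (median 22.3) in female saline libraries), Epha4 (-0.13 (SE 0.06)) and Unc5b (-0.15 (SE 0.07), 22.3 to 27.4 CPM (median 25.8) and 26.7 to 32.2 CPM (median 27.3)). Unc5b was thus lower with morphine on average in both labels. The male minus female difference was -0.24 (SE 0.10) for Unc5b and -0.21 (SE 0.07) for Ephb1, and 0 members were called in that test by edgeR (0% of genes, 3 members and 3.44% of genes at an unadjusted p under 0.05, 0 members in DESeq2). Between female and male pups 0 members were called at PND14 by edgeR (0.107% of genes, 4 members and 4.97% of genes at an unadjusted p under 0.05, 0 members in DESeq2), with the smallest p for Unc5d (-0.15 (SE 0.04)).

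In 3-Tri pups, exposed before and after birth, 0 of 35 members were called by edgeR, beside 0% of the 19730 genes tested, with 4 members at an unadjusted p under 0.05 and 0 called by DESeq2. Of all genes, 4.88% had an unadjusted p under 0.05. The smallest p was that of Epha10, with 47.5 to 57.6 CPM (median 50.8) in 3-Tri morphine libraries, against 37.9 to 51.5 CPM (median 48.0) in 3-Tri saline libraries (log2 fold change 0.10 (SE 0.03), unadjusted p = 0.0047, edgeR adjusted p = 0.97). Epha4 had 222 to 255 CPM (median 238) in morphine and 223 to 337 CPM (median 261) in saline libraries (-0.12 (SE 0.04)), and Robo3 16.3 to 28.1 CPM (median 22.9) and 14.4 to 33.1 CPM (median 20.3) (0.20 (SE 0.09)). The ranges of all 3 overlapped. The highest Robo3 and the lowest Epha10 value of the saline libraries came from the shallowest library, male saline replicate 1. By label, edgeR called 0 members in male pups (0% of genes, 6 members and 4.98% of genes at an unadjusted p under 0.05, 0 members in DESeq2), with the smallest p for Epha4 (-0.17 (SE 0.06)), Epha10 (0.12 (SE 0.05)) and Robo3 (0.25 (SE 0.12)). It called 0 in female pups (0% of genes, 1 member and 2.41% of genes at an unadjusted p under 0.05, 0 members in DESeq2), with the smallest p for Efna4 (0.53 (SE 0.26)), Epha10 (0.08 (SE 0.05)) and Ephb2 (-0.09 (SE 0.06)). The male minus female difference of the drug response gave 0 calls by edgeR (0% of genes, 0 members and 2.32% of genes at an unadjusted p under 0.05, 0 members in DESeq2). Female against male pups also gave 0 (0% of genes, 1 member and 2.31% of genes at an unadjusted p under 0.05, 0 members in DESeq2). None of the 38 partners tested was called by edgeR, with 5 at an unadjusted p under 0.05, beside the 4.88% of all genes.

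The drug responses of the windows were also compared with each other in 1 fit of all 72 libraries, and both comparisons with PND1 rest on the same PND1 libraries. The response at PND14 minus that at PND1 was called in 9 of 35 members, 5 higher and 4 lower, beside 13.3% of the 22010 genes (7.25% higher and 6.07% lower), and DESeq2 called 9. The response in 3-Tri minus that at PND1 was called in 7 members, beside 8.43% of genes, and DESeq2 called 7. Efna5, with a log2 fold change of 0.26 at PND1, -0.02 at PND14 and -0.07 in the 3-Tri window in the fits of single windows, differed by -0.28 (SE 0.08) for PND14 and -0.33 (SE 0.08) for 3-Tri. Efnb1, at -0.27 at PND1, 0.05 at PND14 and 0.02 in the 3-Tri window, differed by 0.32 (SE 0.09) and 0.29 (SE 0.09). Slit2, at 0.22 at PND1, -0.01 at PND14 and -0.05 in the 3-Tri window, differed by -0.23 (SE 0.08) and -0.27 (SE 0.08). For these 3 ligands the drug difference was thus close to 0 in the later windows. All 3 had been called at PND1, a choice that by itself favours smaller differences in other windows. Efna3 (0.31 (SE 0.06) and 0.20 (SE 0.06)) and Unc5d (-0.21 (SE 0.06) and -0.19 (SE 0.06)) were called in both as well. Epha8 (0.25 (SE 0.07)), Efna2 (0.31 (SE 0.08)), Efnb3 (0.18 (SE 0.05)) and Ephb1 (-0.16 (SE 0.05)) were called for PND14 only, and Epha10 (0.21 (SE 0.07)) and Unc5c (-0.33 (SE 0.11)) for 3-Tri only.

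The largest difference of any member in both comparisons was that of Efna4, at 0.51 (SE 0.19) for PND14 and 0.52 (SE 0.18) for 3-Tri, which was not called (edgeR adjusted p = 0.057 and 0.056). Without the PND1 libraries above 10 CPM of hindbrain markers, which left 1 male morphine library at PND1, the Efna4 difference for PND14 was 0.72. It was 0.37 with GC content and length corrected (edgeR adjusted p = 0.22). Without the libraries of doubtful gender label it was 0.53 (edgeR adjusted p = 0.073). Without the 2 libraries the authors left out it was 0.48 (edgeR adjusted p = 0.074). With GC content and length corrected the count for PND14 was 6, with 4 of the 9 kept (Efna3, Efna5, Unc5d and Ephb1), Unc5a and Unc5b gained, and Efnb1 at 0.19 (edgeR adjusted p = 0.17), Slit2 at -0.08 (0.60), Efna2 at 0.15 (0.25), Epha8 at 0.09 (0.44) and Efnb3 at 0.05 (0.54) no longer called. These differences also depended on single ID numbers of the later windows. The count for PND14 was 5 without 4422 or without 4425, and the count for 3-Tri was 1 without 4429, 4 without 4431 and 0 without 4433. With libraries of doubtful gender label left out, as judged by the sex genes, the 3-Tri count was 0 in edgeR, and with GC content and length corrected it was 2. Between 3-Tri and PND14 the drug responses gave 0 calls among the members by edgeR (0.182% of genes, 3 members and 9.14% of genes at an unadjusted p under 0.05, 0 members in DESeq2). Saline pups of 3-Tri set against those of PND14, which are of the same age, also gave 0 calls (0% of the genes in edgeR, 1 member and 3.28% of genes at an unadjusted p under 0.05, 0 members in DESeq2), the smallest p being that of Unc5b at -0.13 (SE 0.06). Morphine pups of 3-Tri set against those of PND14 gave 0 calls in edgeR, beside 0.8% of genes, with 6 members and 14% of genes at an unadjusted p under 0.05 and 1 member called by DESeq2. Its smallest p was that of Ephb1 (log2 fold change 0.13, SE 0.04, edgeR adjusted p = 0.063), with 58.7 to 66.8 CPM (median 62.9) in 3-Tri morphine and 51.5 to 62.8 CPM (median 57.9) in PND14 morphine libraries.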

How the data were processed

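The libraries are bulk RNA-seq of the right hemisphere, 1 per pup, 72 in all. Per the study's methods and the submitters' processing notes, reads were trimmed with Trim Galore 0.6.6, aligned with HISAT2 2.2.1 to mm10, freed of duplicates (Picard), and assigned to GENCODE M25 genes by featureCounts 2.0.1. The count table deposited by the authors is unnormalized, and 0 of its columns lacked a match among the samples. In the comparison tables deposited by the authors, made with DESeq2, the mean signal is a gene's size-factor-scaled count averaged over libraries. From these tables only gene names and that mean were used, the mean to see which libraries entered it, and their fold changes and p-values were not used. The strand setting of the counting is not given in the sources used here.

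The tests are quasi-likelihood F tests of edgeR 4.0.16 (R 4.3.3), with TMM and filterByExpr (minimum count 10, minimum total 15), over all genes, with Benjamini-Hochberg adjustment. Drug contrasts averaged both gender labels in a fit of the 24 libraries of a window, and contrasts between windows used 1 fit of all 72. Each SE was taken as the absolute log2 fold change divided by the root of F. Members and lists were chosen with earlier results of these data known. Values per group were given for the 8 largest called rises and falls of the saline change, and in each drug contrast for every called member or, with none, the 3 with the smallest p. Of the partners, up to 4 each way were named by the same measures, and 1 of them is not reported here. Gene lengths, GC content (known for 99.8% of genes in the correction) and exon overlaps came from GENCODE M21, which matched 55141 of 55401 IDs. Start regions came from RefSeq. The alternatives were DESeq2 1.42.0, DESeq2's size factors in edgeR, library totals alone, no filter, only the groups compared, a lowess correction (span 0.3) for GC content and length, the replicate number as a block, the ID number as a random effect in limma 3.58.1, and leaving out libraries. The fits without the PND1 libraries above 10 CPM of hindbrain markers were added after seeing the data. The steps were tested on simulated counts. Plots were drawn with matplotlib 3.10.9 in Python 3.11.15.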

Additional observations from a re-analysis of the deposited data

Results flagged for a closer look

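In 14 of 300 groups of 4 to 7 libraries tested (25 members in 12 groups each), the highest or lowest library stood apart from the rest by Dixon's criterion, and chance alone marks about 1 in 20 groups. Of these, 4 came from the shallowest library of all, 3-Tri saline male replicate 1. Robo3 was 33.1 CPM there (nearest library 20.4), Efna2 29.7 CPM (22.5), Efnb1 10.0 CPM (16.6) and Epha10 37.9 CPM (47.6). Another 2 came from the shallowest PND14 library, morphine female replicate 4, with Ntn4 at 22.9 CPM (16.0) and Dcc at 78.5 CPM (63.9). At PND1, Epha3 was 66.2 CPM in morphine male replicate 10 (48.1) and 52.9 CPM in saline female replicate 4 (43.3), Epha10 53.9 CPM in morphine male replicate 9 (46.9) and Robo1 173 CPM in saline male replicate 13 (194). Unc5d was lowest at 64.3 CPM in PND14 saline female replicate 12 (71.95) and at 73.0 CPM in 3-Tri saline female replicate 5 (79.3). Epha5 was 185 CPM in PND14 morphine male replicate 3 (218), and Efnb1 13.4 CPM in 3-Tri morphine female replicate 7 (17.2).

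The drug response differed between windows in 16 tests of the difference itself (edgeR, log2 scale). For PND14 minus PND1 the differences were 0.32 for Efnb1, 0.31 for Efna2, 0.31 for Efna3, 0.25 for Epha8, 0.18 for Efnb3, -0.16 for Ephb1, -0.21 for Unc5d, -0.23 for Slit2 and -0.28 for Efna5. For 3-Tri minus PND1 they were 0.29 for Efnb1, 0.21 for Epha10, 0.20 for Efna3, -0.19 for Unc5d, -0.27 for Slit2, -0.33 for Unc5c and -0.33 for Efna5.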

How the results depend on the processing

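The saline change kept 28 to 32 calls under every alternative and 29 to 32 without single libraries or ID numbers, and the morphine change kept 27 to 29 without single ID numbers. Of 2659 values of called members under the alternatives, 2379 kept their direction and their call, 270 lost the call and 10 turned. Scaling by library totals alone moved the median of all genes in the saline change to -0.25 from -0.02 and the split of members to 10 higher and 21 lower from 14 and 17. Under it Unc5d turned to -0.12 (edgeR adjusted p = 0.0065), Slit2 to -0.026 and Epha5 to -0.014 in the saline change, and Epha5 to -0.055 in the morphine change. The cause of these shifts was not tested.

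With GC content and length corrected, the 10 calls of the drug at PND1 became 3, the 8 in the male label 2, the 4 between the labels 0 and the 7 of the 3-Tri response against PND1 2, and Epha8 at PND1 turned to 0.010. The share of all genes called is not given for this fit or for those below. A change in these counts is therefore not shown to be particular to the members. With the replicate number as a block, the calls became 13 at PND1 (8 of the 10 kept, Slit2 and Ephb4 lost), 5 in the male label at PND1, 0 between the labels at PND1, 1 at PND14, 1 in its male label and 1 for morphine 3-Tri against PND14 (0 without the block). Block and correction together gave 4 at PND1, 0 in its male label, 0 between the labels, 1 at PND14, 5 for the PND14 response against PND1 and 2 for the 3-Tri response. Between the labels Efnb3 turned to -0.082 and Unc5a to -0.081 under the block, and both to -0.074 with the correction added, while Epha8 at PND1 turned to 0.010 with both. At PND1 the replicate numbers 1 to 4 were all labelled female and 8 to 14 all male. The labels met only in numbers 5 to 7, as male morphine and female saline libraries. Under the block the label comparison thus hinges on these numbers, and no conclusion is drawn from it. Same-numbered libraries correlated with a median of -0.03 at PND1, -0.10 at PND14 and 0.24 in 3-Tri, beside 0.011, 0.008 and -0.05 for other pairs. Pairs above 0.1 were 2 of 10, 5 of 12 and 8 of 12, and 0, 1 and 4 of 24 libraries correlated best with their own number. The numbers thus did not pair the samples at PND1 and PND14, while in 3-Tri same-numbered libraries were more alike than others.

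DESeq2 gave 1 call in the female label at PND1 (0 in edgeR) and 1 for morphine 3-Tri against PND14, as did library totals alone for morphine 3-Tri against PND14. Without a filter the label comparison at PND1 had 1 call and the 3-Tri response 3. With libraries of doubtful gender label left out the 3-Tri response had 0 calls, and without those high in hindbrain markers it had 1 and the male label at PND1 0, with 1 male morphine library left, which was assumed to vary like the other groups. Without single libraries or ID numbers the calls ran from 7 to 15 at PND1, 4 to 11 in its male label, 1 to 8 between the labels at PND1, 0 to 1 at PND14, 0 to 1 in its male label, 0 to 1 for morphine 3-Tri against PND14 (1 without 4431), 5 to 10 for the PND14 response and 0 to 7 for the 3-Tri response. In these, Unc5c and Unc5d were lost from the saline change without 4424 and Slit1 from the morphine change without 4422.

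Depth limits members at the low end most, Epha1, Epha2, Efna1 and Efna4, whose values rest on few reads in the shallow PND14 and 3-Tri libraries. PND1 and day 14 differ in age, handling, collection and depth together, drug and ID number are nested at PND14 and in 3-Tri, and litters are not given.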
